A study of Homo sapiens with 2 samples.

Results

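The genes described here are 42 genes of glucose uptake, glycolysis, pyruvate oxidation, the pentose phosphate pathway and glycogen turnover, compared between 2 melanoma cell lines. They were chosen by symbol, as the probe sets whose platform annotation names a member, with 1 value per gene from the probe set of highest mean over both arrays. Of the 42 genes, 40 had such a probe set, out of 19775 genes on the array. The levels of SLC16A1 and SLC16A3 were not analysed here. IGR37 is a line from a lymph node metastasis and IGR39 a line from an achromic primary cutaneous tumour. Both are untreated lines grown in DMEM with serum, and the series' design text calls its lines related. The breast lines named there were not analysed here. Total RNA of each line was hybridised to 1 Affymetrix Human Genome U133 Plus 2.0 array. A culture of a line is a model of a tumour without its stroma, vessels or oxygen gradients, and 1 line stands for each site.

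Glycolysis splits glucose into pyruvate in the cytosol. Pyruvate is then reduced to lactate and exported, or enters mitochondria, where the pyruvate dehydrogenase complex turns it into acetyl-CoA. The pentose phosphate pathway branches off after the first step and yields NADPH and ribose, and glycogen stores glucose units for later release. Many tumour cells, melanoma cells among them, take up much glucose and release lactate even with oxygen at hand. Several steps have isozymes encoded by different genes, which differ in tissue, regulation and place in the cell.

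Levels are log2 values, so a difference of 1 is 2-fold. Differences are IGR37 minus IGR39, so a positive value means a higher level in IGR37. A gene counts as measured at a usable level where the brighter array reached log2 6. With 1 array per line there was no replicate, so no test was possible and no difference has a replicate check. In cultures of 1 cell type the arrays compare shares of the RNA, so less RNA per cell and fewer cells with a transcript cannot be told apart.

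Medians were 4.14 in IGR37 and 4.17 in IGR39, in values from RMA, a processing that makes arrays alike in distribution. Median differences were 0.02 for 18 hybridisation spike-ins (SD 0.08) and 0.25 for 24 poly-A spike-ins (SD 0.31, from -0.47 to 0.68). Between probe sets of one gene, differences had a pooled SD of 0.40. Of 7 measured melanocyte lineage markers, 7 reached log2 6 in IGR37 and only 1, MITF, in IGR39, with summed levels of 80.5 in IGR37 and 30.4 in IGR39. SOX10 stood at 10.65 in IGR37 and 4.10 in IGR39, and MLANA at 12.83 and 3.33 in the same order, so the defining markers of the lineage other than MITF were near background in IGR39. Markers of endothelial cells (0 of 5 genes) and of lymphocytes and macrophages (0 of 7) stayed below log2 6 in both arrays. Of 7 fibroblast markers, 3 reached it in IGR37 and 1 in IGR39, and their levels spanned 3.64 to 6.83 in IGR37 and 3.41 to 8.85 in IGR39. Of 5 keratinocyte markers, KRT10 was the only one at this level, at 9.08 in IGR37 and 9.13 in IGR39. The part of these differences in the results below was not tested.

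Of the 40 measured members, 36 reached log2 6 in the brighter array. In all, 12 of the 36 (33.3%) lay past 2-fold, where 21.0% of all genes at this level did. The members were chosen with earlier results of these data known, so setting their shares beside those of all genes is no test. In IGR37, 7 of the 36 (19.4%) were at least 2-fold higher, where 11.4% of all 8501 genes at this level were. A further 5 (13.9%) were at least 2-fold lower, where 9.50% of all genes were, and 24 lay within 2-fold. Positive differences were found in 23 of the 36 and in 54.5% of all genes. The genes higher in IGR37 were GYG2, PYGL, PGM1, PDK3, HK2, ENO2 and PDK1. Those lower were SLC2A6, HK1, PFKP, PFKFB3 and SLC2A8. The median difference of the 36 was 0.14, against 0.07 for all genes. Centring the arrays on housekeeping genes instead, which lowers every difference alike, gave medians of -0.058 for the members and -0.13 for all genes. Just inside 2-fold lay SLC2A1 at -0.98 and DLAT at 0.96, and just outside it SLC2A8 at -1.12 and PDK1 at 1.20. Of the 12 members past 2-fold, 10 rest on a single probe set at a usable level, and in 4 (HK2, PDK1, GYG2 and SLC2A8) the dimmer line lay below log2 6.

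**Figure D1:**
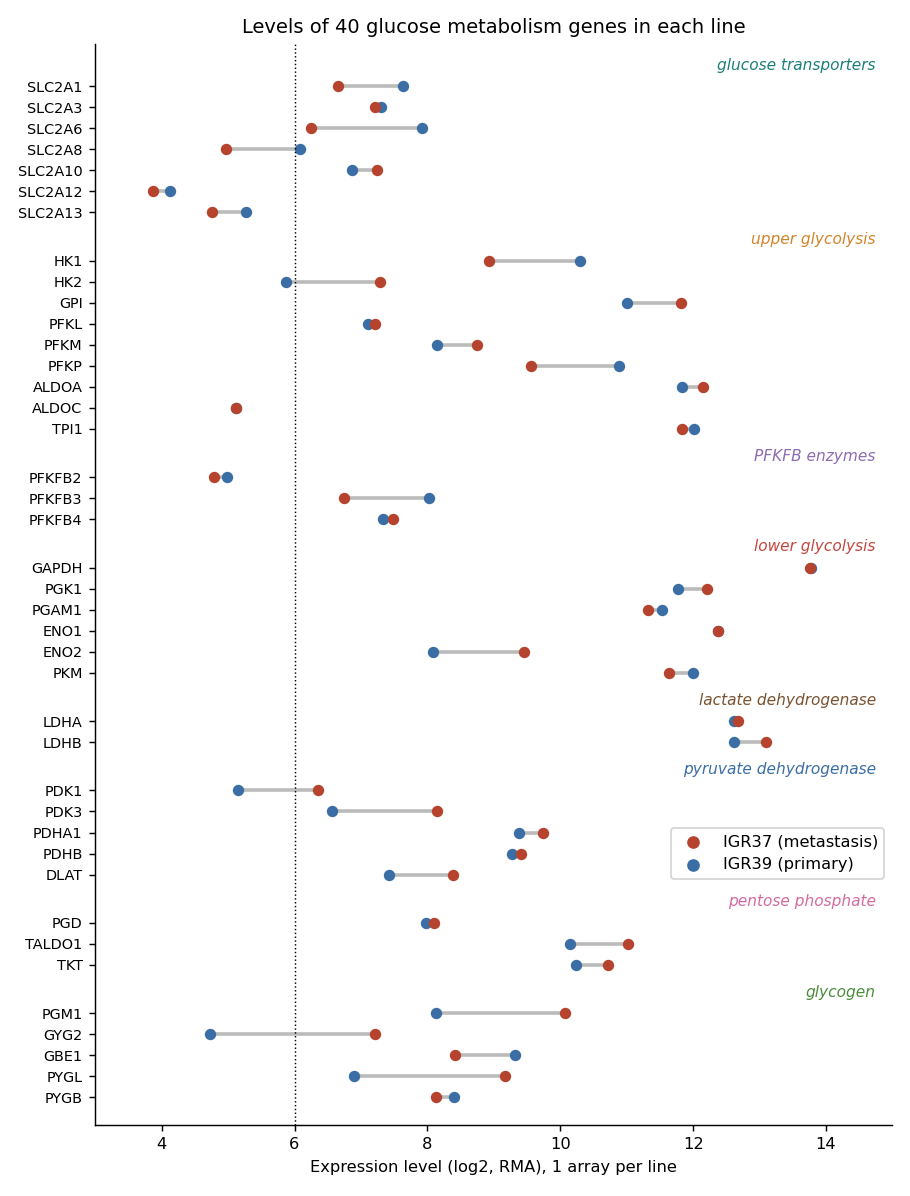
Level of each of the 40 measured genes on the log2 scale, 1 array per line, grouped by role, with IGR37 in red and IGR39 in blue. The dotted line is the minimum of log2 6. The lower glycolysis and lactate dehydrogenase genes lie far to the right with their points close together, except ENO2, while PGM1, GYG2 and PYGL have IGR37 well to the right of IGR39.

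The share of genes past 2-fold was lower at high levels, among all genes as among the members. The enzymes that carry the main glycolytic flow are among the most abundant transcripts of most cells, and here 13 members had a mean level at or above log2 10. PFKP was the only 1 of these 13 past 2-fold (7.69%), where 9.94% of the 674 genes at that level were. The other 12 ranged from -0.37 for PKM to 0.86 for TALDO1. Below log2 10, 11 of 23 members were past 2-fold (47.8%), where 21.9% of 7827 genes were. Among the 11, GYG2, HK2, PDK1 and SLC2A8 reached log2 6 only in the brighter line. The limit of log2 10 was set after the values were seen, and the members were chosen with earlier results known.

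**Figure D2:**
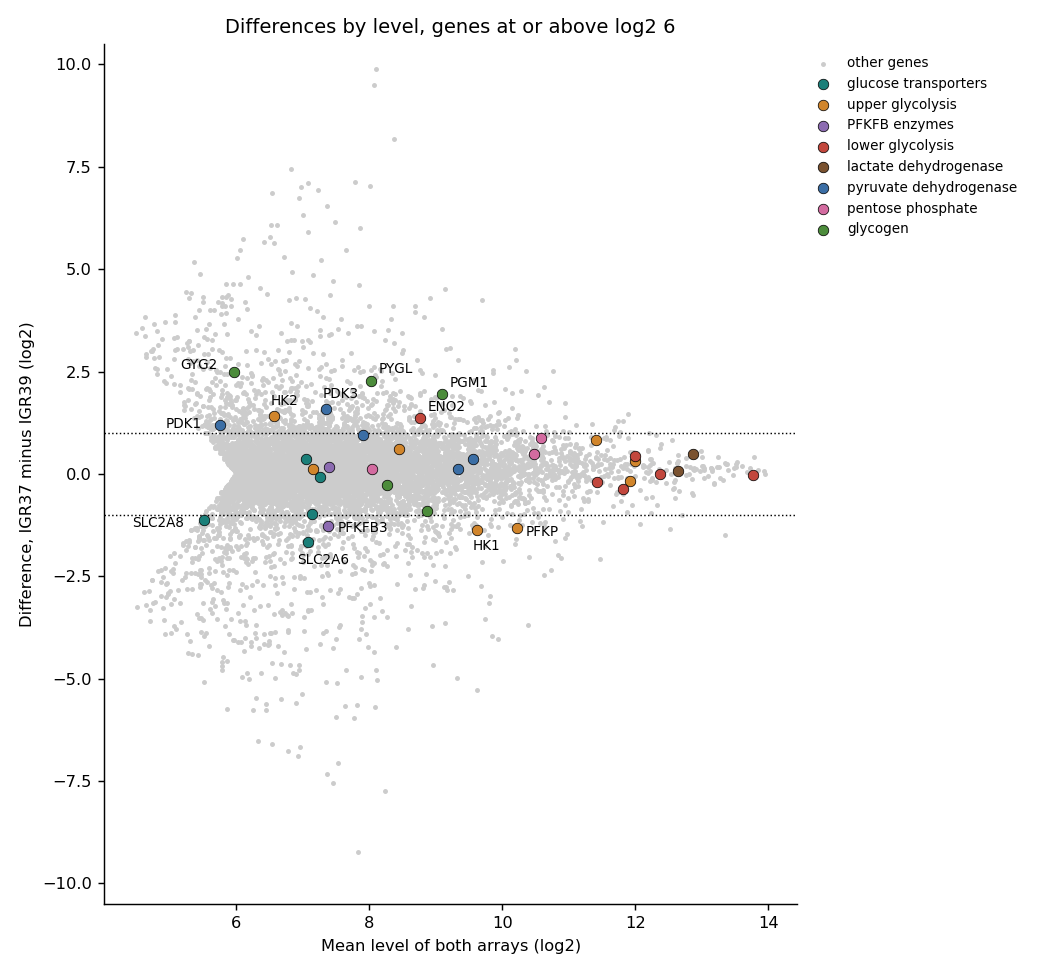
Difference (IGR37 minus IGR39, log2) against the mean level of both arrays for genes at or above log2 6, with members coloured by role and other genes in grey. Dotted lines mark 2-fold. To the right of log2 10, PFKP lies past 2-fold and the other 12 members lie between -0.37 and 0.86, while the other members past 2-fold lie to the left.

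Glucose transporters were mostly lower in IGR37 or near background. SLC2A6, which encodes a transporter of lysosomal membranes, stood at 6.25 in IGR37 and 7.92 in IGR39, so it was 3.17-fold higher in IGR39. SLC2A8, an intracellular hexose transporter, stood at 4.97 in IGR37 and 6.09 in IGR39, so its level in IGR37 was below the minimum. SLC2A1, the main basal glucose transporter of many tumour cells, was at 6.65 in IGR37 and 7.63 in IGR39. Its difference of -0.98 lay just inside 2-fold, and its other probe set was near background in both lines, at 3.67 in each. SLC2A3, a high-affinity transporter of neurons and many tumours, was nearly level at 7.22 in IGR37 and 7.30 in IGR39. A second probe set of SLC2A3 stood at 5.94 in IGR37 and 6.68 in IGR39. SLC2A10 was the single transporter with a positive difference, at 7.23 in IGR37 and 6.87 in IGR39. SLC2A12, and the myo-inositol transporter gene SLC2A13, did not reach log2 6, with highest levels of 4.12 and 5.27, both in IGR39. Past 2-fold, 0 of the 5 transporters at a usable level were higher and 2 lower, with a median difference of -0.98. Of all genes at this level, 11.4% were past it on the higher side and 9.50% on the lower, with a median difference of 0.07. TXNIP, an arrestin that promotes removal of glucose transporters from the cell surface, was at 7.29 in IGR37 and 6.76 in IGR39.

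The hexokinases, which trap glucose in the cell by phosphorylating it, differed in opposite directions. HK2, the inducible form of muscle, fat and many tumours, was at 7.29 in IGR37 and 5.87 in IGR39. Its level in IGR39 was below the minimum, so no fold is given for it. HK1, the widely expressed form, was at 8.93 in IGR37 and 10.30 in IGR39, and was 2.58-fold higher in IGR39. The difference of HK2 exceeded that of HK1 by 2.79 on the log2 scale. The other probe sets of HK2 were dim in both lines, at 4.97 and 3.61 in IGR37 and at 4.77 and 3.24 in IGR39, and with them averaged in, the difference of HK2 was 0.66. HK3, the leukocyte form, and HKDC1 were below log2 6 in both lines. ADPGK, which phosphorylates glucose with ADP, was at 8.46 in IGR37 and 7.82 in IGR39.

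Phosphofructokinase, which commits sugar to glycolysis, also differed by isozyme. PFKP, the platelet form, was at 9.56 in IGR37 and 10.89 in IGR39, 2.51-fold higher in IGR39. PFKM, the muscle form, was at 8.75 in IGR37 and 8.15 in IGR39, and the liver form PFKL at 7.22 and 7.10. The difference of PFKM exceeded that of PFKP by 1.93 on the log2 scale. For PFKL, the difference exceeded that of PFKP by 1.44. PFKP has a second, dim probe set at 3.85 in IGR37 and 3.68 in IGR39, and the mean over both gave -0.58 for PFKP. The PFKFB enzymes make and remove the sugar bisphosphate that activates phosphofructokinase. PFKFB3, whose kinase activity dominates, was at 6.75 in IGR37 and 8.02 in IGR39, 2.42-fold higher in IGR39. PFKFB4 was at 7.48 in IGR37 and 7.32 in IGR39, with -0.35 on its other probe set at a usable level. PFKFB2, the heart form, did not reach log2 6, and its probe sets disagreed. The brightest by mean was at 4.79 in IGR37 and 4.99 in IGR39, while another was at 5.33 in IGR37 and 3.69 in IGR39. TIGAR, a phosphatase that degrades the same activator, was at 8.51 in IGR37 and 7.92 in IGR39.

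The remaining steps of upper glycolysis lay within 2-fold. GPI, which isomerises the phosphorylated sugar, was at 11.82 in IGR37 and 11.00 in IGR39. The aldolase gene ALDOA was at 12.14 in IGR37 and 11.84 in IGR39, and TPI1, the triose phosphate isomerase gene, at 11.83 and 12.02. ALDOC, the brain aldolase, stood at 5.12 in each line, below the minimum.

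Of the 6 lower glycolysis members, ENO2 was past 2-fold on the probe set used and the other 5 lay within it. Of all genes at a usable level, 21.0% were past 2-fold in either direction. GAPDH was at 13.75 in IGR37 and 13.77 in IGR39, and its 3 probe sets differed by -0.08 to 0.02. The array's control probe sets for the 3' end of GAPDH exceeded those for its 5' end by 0.49 in IGR37 and 0.66 in IGR39. The phosphoglycerate kinase gene PGK1 was at 12.22 in IGR37 and 11.78 in IGR39, with differences of 0.44 to 0.75 over 5 probe sets. PGAM1, the next enzyme, was at 11.32 in IGR37 and 11.53 in IGR39. GAPDH, PGK1 and PGAM1 were thus within 2-fold on every probe set of theirs at a usable level. Enolase was split between its genes. ENO1, the common form, was at 12.38 in IGR37 and 12.37 in IGR39. ENO2, the neuronal form that is also a marker of neuroendocrine and some melanoma cells, was at 9.45 in IGR37 and 8.09 in IGR39, 2.57-fold higher in IGR37. PKM, the pyruvate kinase of most tissues, was at 11.64 in IGR37 and 12.00 in IGR39. Its second probe set was at 5.96 in IGR37 and 7.15 in IGR39, so the 2 probe sets of PKM differed in size, by -0.37 and -1.19. Which transcripts of PKM each detects was not examined. LDHA, the muscle form of lactate dehydrogenase, was at 12.68 in IGR37 and 12.61 in IGR39. LDHB, the heart form, was at 13.10 in IGR37 and 12.62 in IGR39, with 0.44 on its second probe set. Many of these bright probe sets carry the suffix _x_at or _s_at, which marks possible cross-hybridisation with related sequences, and several of these genes have processed pseudogenes, so their values may include near-identical copies.

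**Figure D3:**
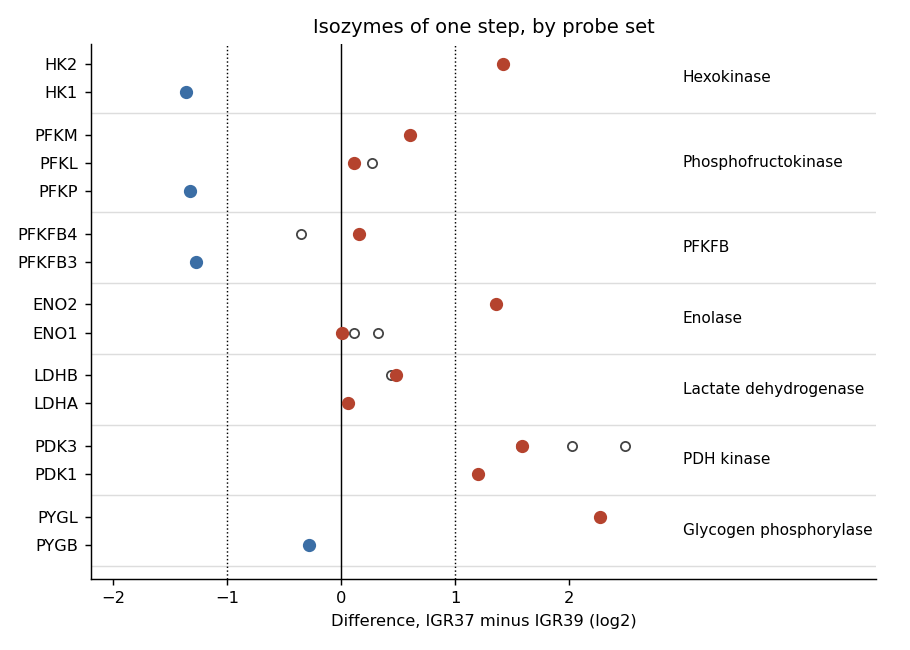
Difference (IGR37 minus IGR39, log2) of the genes that encode alternative forms of one enzyme. Filled points are the probe set used for the gene, red where higher in IGR37 and blue where lower, and open points are its other probe sets at or above log2 6. HK2 and HK1 lie on opposite sides beyond the dotted 2-fold lines, PFKP and PFKFB3 lie apart from their relatives, and PYGL lies apart from PYGB.

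All 5 pyruvate oxidation members had positive differences, where 54.5% of all genes at a usable level did. Of the 5, 2 were past 2-fold, the kinase genes PDK1 and PDK3, where 11.4% of all genes were at least 2-fold higher. PDK1 and PDK3 encode kinases that phosphorylate pyruvate dehydrogenase and switch it off. PDK3 was at 8.15 in IGR37 and 6.56 in IGR39, a 3.01-fold higher level in IGR37, and its 4 probe sets at a usable level differed by 1.58 to 2.49. PDK1 was at 6.36 in IGR37 and 5.15 in IGR39, so its higher value rests on a dim gene, and averaging its probe sets gave 0.40. Of the catalytic subunits, PDHA1 was at 9.74 in IGR37 and 9.37 in IGR39, and PDHB at 9.40 and 9.28. DLAT, the acetyltransferase subunit, was at 8.39 in IGR37 and 7.43 in IGR39, with differences of 0.45 to 0.96 over 3 probe sets. The median difference of the 5 pyruvate oxidation members was 0.96, against 0.07 for all genes. Outside the members, PDP1, the phosphatase that switches the complex back on, was at 7.75 in IGR37 and 9.54 in IGR39, with differences of -1.79 and -1.91 on its probe sets. MPC1, a subunit of the mitochondrial pyruvate carrier, was at 9.84 in IGR37 and 8.03 in IGR39. Its partner MPC2 was at 8.75 in IGR37 and 8.14 in IGR39. Among the other kinases, PDK2 was at 7.01 in IGR37 and 6.74 in IGR39, and PDK4 was near background in both lines.

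All 3 pentose phosphate members had positive differences within 2-fold, where 54.5% of all genes at a usable level had positive differences. TALDO1, a transaldolase of the non-oxidative arm, was at 11.01 in IGR37 and 10.15 in IGR39. TKT, the transketolase of the same arm, was at 10.72 in IGR37 and 10.24 in IGR39, with differences of 0.42 to 1.24 over 3 probe sets. PGD, an NADPH-producing dehydrogenase of the oxidative arm, was at 8.10 in IGR37 and 7.98 in IGR39. The largest difference of TKT, 1.24, came from a dim probe set at 6.26 in IGR37 and 5.02 in IGR39. Another 6 genes at a usable level were listed beside this pathway, namely PGLS, RPIA, RPE, RBKS, PRPS1 and PRPS2. Of these, 0 were past 2-fold in either direction, where 21.0% of all genes were. Their largest difference was that of RPIA, a ribose phosphate isomerase, at 7.49 in IGR37 and 6.56 in IGR39.

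Among members with both lines at or above log2 6, PYGL and PGM1 of glycogen metabolism had the largest differences. PYGL, the liver form of glycogen phosphorylase, which releases glucose units from glycogen, was at 9.17 in IGR37 and 6.90 in IGR39, a 4.85-fold higher level in IGR37. PGM1, which links those units to glycolysis, was at 10.07 in IGR37 and 8.12 in IGR39, 3.85-fold higher in IGR37. GYG2, a glycogenin that primes new glycogen chains, was at 7.21 in IGR37 and 4.73 in IGR39, and its 3 probe sets differed by 1.48 to 3.06. The level of GYG2 in IGR39 was below the minimum, so no fold is given for it. PYGB, the brain form of the phosphorylase, did not share this pattern, at 8.13 in IGR37 and 8.41 in IGR39. The difference of PYGL exceeded that of PYGB by 2.56 on the log2 scale. GBE1, the branching enzyme, was at 8.42 in IGR37 and 9.32 in IGR39, a negative difference of -0.90. So 3 of 5 glycogen members were past 2-fold on the higher side and 0 on the lower. Their median difference was 1.94, and they were chosen with earlier results of these data known. Of all genes at a usable level, 11.4% were at least 2-fold higher and 9.50% lower, with a median difference of 0.07. Among 9 other glycogen genes at a usable level, PPP1R3B was higher and PGM2L1 lower by at least 2-fold, beside these same shares. PPP1R3B, which brings a phosphatase to glycogen, was at 6.91 in IGR37 and 5.10 in IGR39. PGM2L1, which makes a glucose bisphosphate, was at 4.49 in IGR37 and 6.11 in IGR39. GYG1, the common glycogenin, was at 10.49 in IGR37 and 9.65 in IGR39, and GYS1, the synthase of most tissues, at 8.57 and 8.03.

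Genes of the same or adjoining pathways outside the members, and regulators of glycolysis, were read from a companion list. Of 97 genes on it, 85 were measured and 44 reached log2 6. Of the 44, 8 (18.2%) were higher in IGR37 by 2-fold or more and 4 (9.09%) lower. For all genes, the shares given above were 11.4% and 9.50%. Among the companions past 2-fold, GAPDHS, PPP1R3B, ARNT, EMB and PGM2L1 reached log2 6 only in the brighter line. The median difference of the 44 was 0.54. Regulators of glycolysis made up 7 of the 44, 2 of the 8 higher and 1 of the 4 lower. GAPDHS, the glyceraldehyde phosphate dehydrogenase of sperm, was at 6.78 in IGR37 and 3.45 in IGR39, a level below that array's median. EMB, a membrane partner of monocarboxylate transporters, was at 5.54 in IGR37 and 7.10 in IGR39. The related partner BSG was at 8.94 in IGR37 and 9.49 in IGR39. Enzymes that lead out of glycolysis were at least 2-fold higher in IGR37 for 3 of 4 genes, and the fourth, GPD1L, lay just inside 2-fold with a difference of 0.97. PHGDH, the first enzyme of serine synthesis, was at 8.58 in IGR37 and 6.63 in IGR39. GPD2, the mitochondrial enzyme of the glycerol phosphate shuttle, was at 9.05 in IGR37 and 7.46 in IGR39. GFPT1, which opens the hexosamine pathway, was at 8.81 in IGR37 and 7.58 in IGR39, and its 4 probe sets differed by 1.23 to 2.63.

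**Figure D4:**
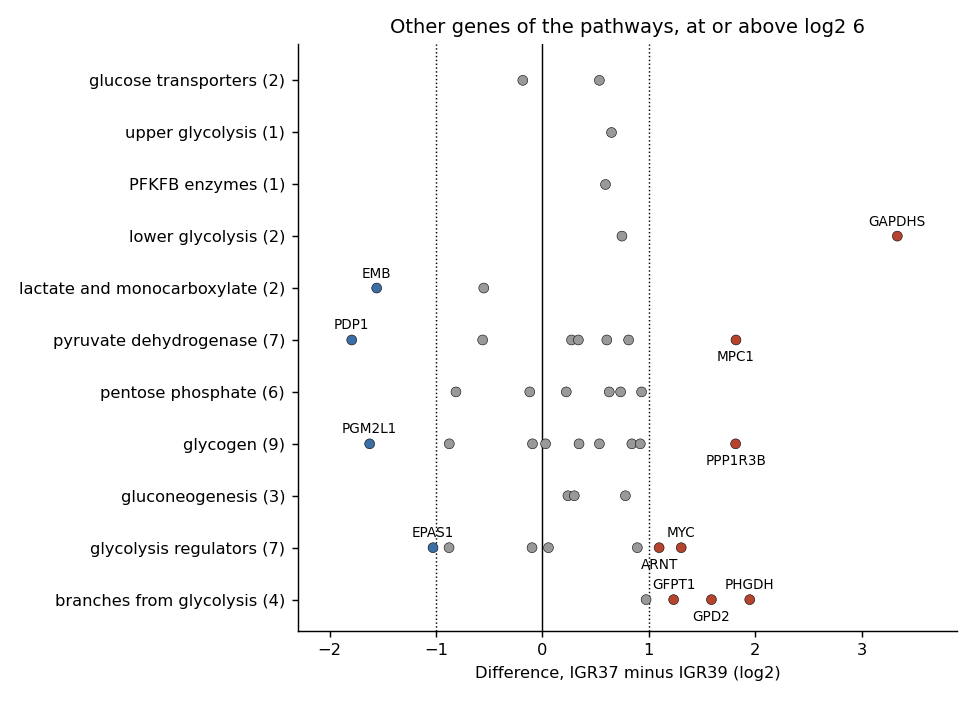
Difference (IGR37 minus IGR39, log2) of the 44 companion genes that reached log2 6, 1 point a gene, by list, with the number of genes in brackets. They are genes of the same or adjoining pathways outside the members, and regulators of glycolysis. Named points are past the dotted 2-fold lines, red where higher in IGR37 and blue where lower. The genes of branches from glycolysis all lie to the right of 0.

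Transcription factors known to act on these genes differed in both directions. HIF1A, the oxygen-regulated factor that induces many glycolytic genes, was at 9.94 in IGR37 and 10.82 in IGR39. Its relative EPAS1 was at 7.75 in IGR37 and 8.78 in IGR39, a difference of -1.03. Their common partner ARNT was at 6.42 in IGR37 and 5.32 in IGR39, so its level in IGR39 was below the minimum. MYC, which also acts on glycolytic genes, was at 10.32 in IGR37 and 9.02 in IGR39. HIF1A is controlled mainly through protein stability, which arrays do not measure.

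The members past 2-fold were also described by their promoters. RefSeq start sites in the build GRCh38.p14 gave 67 windows of 300 bases, from 250 before to 50 after a start, for 39 members. Windows of SLC16A3, which has no level here, and of members below log2 6 are among the 67 but in none of the groups below. Searched on both strands were ACGTG, the core of the hypoxia response element, and CACGTG, the E-box bound by MYC, MITF and glucose-responsive factors. CATGTG, another MITF element, and TGANTCA, the AP-1 site, were searched too. Every CACGTG also contains ACGTG. Of all 35116 windows, 21.4% held ACGTG, 7.26% CACGTG, 11.1% CATGTG and 7.71% TGANTCA. Of the 11 windows of members at least 2-fold higher in IGR37, 6 held ACGTG. Of the 15 windows of members at least 2-fold lower, 2 did, and of the 33 windows of members within 2-fold, 15 did. CATGTG was held by 1 of the 11, 4 of the 15 and 1 of the 33 windows in the same order, and TGANTCA by 1, 2 and 0. For CACGTG the numbers were 1, 1 and 4. Windows of one gene can overlap, so they are not independent, and a match in the letters is no evidence of binding. CACGTG was found in the windows of HK2 and PFKFB3, which differed in opposite directions, and in those of ALDOA, GAPDH, LDHA and PDHB, which lay within 2-fold.

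Printed here are the windows of HK2, PDK1 and PFKFB3, which hold ACGTG at members that differed in opposite directions, and that of PYGL. PYGL is an example of a member past 2-fold whose window holds none of the 4 motifs. The windows of GYG2, SLC2A6 and SLC2A8 also hold none of them. HK2, PDK1 and PFKFB3 have 2 windows each, of which 1 is shown. The capitals mark the motif matches on either strand, and each sequence runs 5′ to 3′ along its gene. The HK2 window is chr2:74834920-74835219 (plus strand) and has 2 CACGTG sites, the PDK1 window is chr2:172555840-172556139 (plus strand) with 2 ACGTG sites on the opposite strand, the PFKFB3 window is chr10:6202682-6202981 (plus strand) with 1 CACGTG site, and the PYGL window is chr14:50944434-50944733 (minus strand).
HK2: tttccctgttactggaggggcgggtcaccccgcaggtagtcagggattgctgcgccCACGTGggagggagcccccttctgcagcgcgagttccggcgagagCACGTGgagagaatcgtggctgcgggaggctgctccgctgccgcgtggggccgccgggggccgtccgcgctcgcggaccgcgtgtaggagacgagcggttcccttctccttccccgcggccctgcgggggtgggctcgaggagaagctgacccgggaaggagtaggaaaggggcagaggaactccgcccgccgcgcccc
PDK1: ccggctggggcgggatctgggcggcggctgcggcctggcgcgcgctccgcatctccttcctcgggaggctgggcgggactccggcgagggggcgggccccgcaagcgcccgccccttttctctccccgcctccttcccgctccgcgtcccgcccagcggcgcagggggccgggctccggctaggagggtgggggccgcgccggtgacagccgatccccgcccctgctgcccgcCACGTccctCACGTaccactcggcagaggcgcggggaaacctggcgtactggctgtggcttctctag
PFKFB3: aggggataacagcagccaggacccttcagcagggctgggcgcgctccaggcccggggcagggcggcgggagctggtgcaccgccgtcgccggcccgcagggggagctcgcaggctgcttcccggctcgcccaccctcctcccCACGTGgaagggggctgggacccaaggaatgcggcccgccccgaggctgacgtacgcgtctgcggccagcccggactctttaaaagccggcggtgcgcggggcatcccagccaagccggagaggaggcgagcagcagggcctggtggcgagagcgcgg
PYGL: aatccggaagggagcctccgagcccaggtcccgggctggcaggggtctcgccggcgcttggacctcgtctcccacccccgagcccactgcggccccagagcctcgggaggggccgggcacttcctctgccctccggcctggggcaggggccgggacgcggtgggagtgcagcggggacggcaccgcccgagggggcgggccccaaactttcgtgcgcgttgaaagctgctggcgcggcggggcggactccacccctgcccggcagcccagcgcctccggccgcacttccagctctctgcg

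All 5 members at least 2-fold lower in IGR37 lie on chromosomes 9 and 10. Chromosome 10 carries HK1, PFKP, PFKFB3 and PGAM1, and all 4 had negative differences. Of the 318 genes of chromosome 10 at a usable level, 78.0% had negative differences and 24.5% were at least 2-fold lower. Their median of -0.50 was the lowest of 23 chromosomes. Chromosome 9 carries SLC2A6 and SLC2A8, and the median of its 365 genes was -0.35, the third lowest, and 14.0% of them were at least 2-fold lower. The 4 members on the X chromosome, GYG2, PDK3, PGK1 and PDHA1, all had positive differences, where 60.1% of its 263 genes did, with a median of 0.13.

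To set each member beside its surroundings, the median difference of the 10 nearest genes at a usable level on each side was subtracted. HK1, whose neighbours had a median of -0.69, then differed by -0.68, PFKP by -0.79, PFKFB3 by -0.84 and SLC2A8 by -0.73. Of the 5 lower members, SLC2A6 alone remained past 2-fold, at -1.35. SLC2A1 at -1.04 and GBE1 at -1.24 then passed it, so 3 members were at least 2-fold lower, where 10.0% of 8492 placed genes were. All 7 higher members remained past 2-fold, from 1.10 for PDK1 to 2.53 for PYGL, and PFKM joined them at 1.02, so 8 did, where 8.44% of placed genes did. Both chromosome descriptions were chosen after seeing the data. PYGL and ENO2 lay among genes whose medians were negative, at -0.25 and -0.22. Of the 12 members past 2-fold, 10 had the sign of their neighbours' median, and of all 36, 27 did (75.0%), where 63.9% of 8492 placed genes did. Gene copy number was not measured here, and its part in these differences was not tested.

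**Figure D5:**
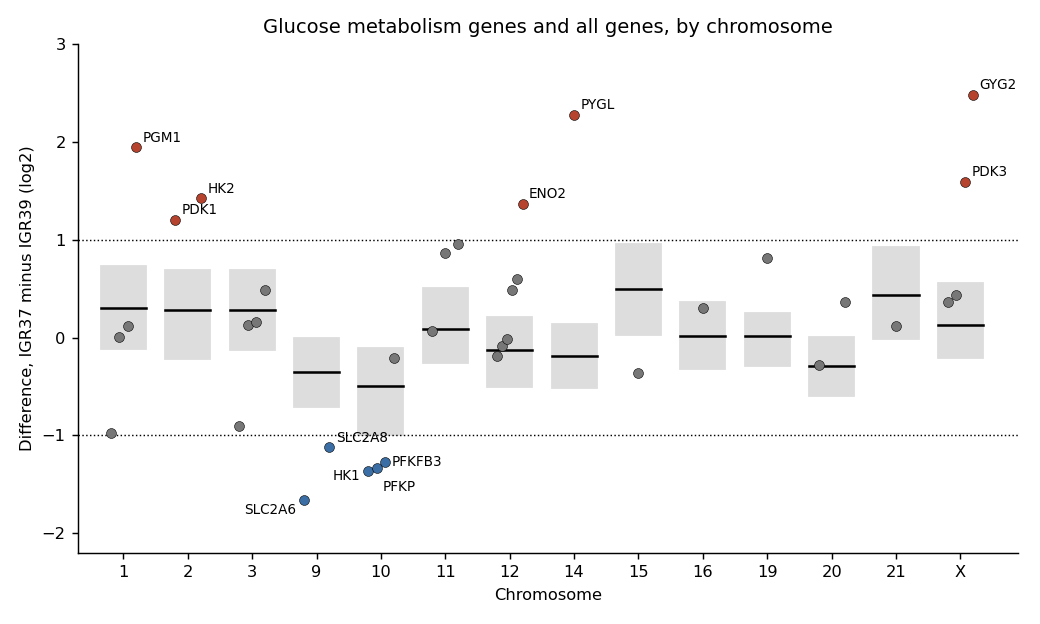
Difference (IGR37 minus IGR39, log2) by chromosome, for chromosomes that carry a member at or above log2 6. Grey boxes span the middle quartiles of all genes at that level and black lines are their medians, while points are members, red where at least 2-fold higher in IGR37, blue where at least 2-fold lower and grey between the dotted lines. The blue points lie on chromosomes 9 and 10, whose medians are -0.35 and -0.50.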

How the data were processed

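For each probe set the authors deposited a log2 level. RMA and the affy package are named per the submitters' processing notes. Their versions and the set of arrays normalised together were not given in the sources used here. RMA corrects background, makes the arrays' distributions alike and summarises probes, so it removes overall differences between arrays.

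Of 54675 probe sets, 41091 had 1 platform symbol, and 41037 of these were updated through gene identifiers in the RefSeq table (GRCh38.p14), which also gave chromosome and gene order. Probe sets with several symbols were left out. With 1 array per line, no test was run, and precision is limited by the number of arrays. The members and lists were chosen with earlier results of these data known. All members are accounted for, and from each other list at most 4 genes past 2-fold at or above log2 6 were to be named, plus relatives of the same enzyme family. Genes such as TXNIP, TIGAR, ADPGK, RPIA, MPC2 and GYS1 were added after their values were seen. Alternatives changed the minimum level, the probe set and the scaling. Subtracting neighbours or chromosome medians was chosen after seeing the data. The calculation was checked on simulated data with known differences, which bears on the code and not on the spread between cultures. Python 3.11.15, numpy 2.4.6, pandas 2.3.3, statsmodels 0.14.6 and matplotlib 3.10.9 were used.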

Additional observations from a re-analysis of the deposited data

Results flagged for a closer look

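A probe set annotated to both SLC2A3 and SLC2A14 enters no gene value, but was above the minimum, at 7.07 in IGR37 and 7.21 in IGR39, a difference of -0.15. It drew attention as a signal outside the genes compared, since SLC2A14 is a close copy of SLC2A3. A second shared probe set stood at 5.74 in IGR37 and 6.00 in IGR39, a difference of -0.26. With 1 array per line, no group could be searched for a sample that stands apart.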

How the results depend on the processing

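Over 8 other settings of minimum level, probe set choice and scaling, 5 to 7 members were higher in IGR37 by 2-fold or more and 3 to 7 lower, with 18 to 40 members at the minimum. Of all genes, 5.80% to 12.3% were then higher and 4.85% to 12.6% lower. The members' median ranged from -0.058 to 0.30. The median turned negative, at -0.058, when the arrays were centred on 18 housekeeping genes, which shifts every difference by 0.20, and the median of all genes was then -0.13. With this centring 7 members were lower, beside 12.6% of all genes, and with the lowess trend removed 7, beside 10.6%. Averaging all probe sets gave 3 lower and 5 higher of 31 members, beside 8.56% and 10.0% of all genes. Dim probe sets enter that average. Subtracting the neighbouring genes or the chromosome medians, both chosen after seeing the data, gave 3 lower members each. Of placed genes, 10.0% and 10.1% were then at least 2-fold lower. The 3 members were SLC2A6, SLC2A1 and GBE1 in both, so 4 of the 5 lower members fell inside 2-fold. With chromosome medians subtracted, PDK1 was at 0.92 and 6 members were higher, beside 8.57% of placed genes. All 12 members past 2-fold kept their sign in every one of these 8 settings that gave them a value. SLC2A8, HK2, PFKP and PDK1 fell inside 2-fold when all probe sets were averaged, at -0.67, 0.66, -0.58 and 0.40. Dropping probe sets ending in _x_at or _s_at left 18 members and no value for PFKFB3, PGM1 and GYG2. No paired analysis was possible because each line has 1 array, and for the same reason no replicate could be left out. Differences of genes near log2 6 are the least certain, since RMA compresses low levels.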
